A study of Homo sapiens with 16 samples.

Results

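The genes described here encode the histone methyltransferase DOT1L and the proteins that tie it to transcription elongation: MLLT1, MLLT3, MLLT6, MLLT10, AFF1, AFF4, ELL, ELL2 and CDK9. They were taken by symbol, matched to the Ensembl gene IDs of the expression table, and all 10 were found among its 22445 genes. The study grew Molm14 cells, an acute myeloid leukaemia line that carries a KMT2A-MLLT3 fusion, and measured gene expression by RNA sequencing of bulk cultures. There were 16 libraries, 4 in each group. The iDOT1L group had received 0.16 uM EPZ5676, an inhibitor of DOT1L. The iEZH2 group had received 0.3 uM GSK126, an inhibitor of the histone H3 lysine 27 methyltransferase EZH2, and the Combo group had received both compounds at those doses. The DMSO group had vehicle alone. Exposure lasted 7 days, with medium and compound renewed on day 4. One label instead describes RNA taken 3 days after a sort. The treatment description was followed here. All groups are 1 cell line, and the labels do not say whether the libraries of a group came from separate cultures, so every p-value measures the spread between these libraries only.

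DOT1L methylates histone H3 at lysine 79 within transcribed genes. MLLT10 and MLLT6 are partners of DOT1L, and MLLT1 and MLLT3 are paralogous readers of acylated histones whose C-terminal part can bind either DOT1L or the AFF scaffolds. AFF1 and AFF4 hold the super elongation complex together, in which CDK9, the kinase of P-TEFb, phosphorylates paused RNA polymerase II and ELL or ELL2 raises its rate. In KMT2A-rearranged leukaemia the fusion proteins recruit these complexes to their target genes. EPZ5676 blocks the methyltransferase activity of DOT1L and is not aimed at its mRNA.

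Expression is given as normalised counts, recovered from the variance-stabilised log2 values in the deposited table and scaled between libraries by the authors. Libraries summed to 22.4 to 24.1 M normalised counts, Pearson correlations between libraries were 0.982 to 0.996, and all 8 markers of a myeloid line were in the table. Their normalised counts summed to 45756 to 49799 in iDOT1L, 30146 to 36780 in iEZH2 and 45360 to 53574 in Combo, against 35032 to 39196 in DMSO, and 2 of the 8 were called higher and 1 lower in Combo against DMSO. T cell markers summed to 23.3 to 61.9 in Combo, against 17.2 to 24.3 in DMSO, with 1 of 3 called higher, and erythroid markers to at most 3.43 in any library. B cell markers, mostly PAX5, summed to 526 to 847 in Combo, against 1002 to 1423 in DMSO. The 4 stromal markers summed to 241 to 306 in Combo, against 88.3 to 151 in DMSO, with 1 of the 4 called higher. That difference lay mainly in COL1A1, with a mean of 201 in Combo and 65.3 in DMSO. By mean PDGFRB was also higher in Combo, whereas COL1A2 and COL3A1 were lower. Epithelial markers summed to 27.6 to 57.0 in Combo, against 21.7 to 138 in DMSO. In the Combo libraries mitochondrial mRNAs made up 2.66% to 3.54% of normalised counts, against 1.66% to 2.50% in the DMSO libraries. The part of these markers and of the mitochondrial share in the results was not tested. In bulk RNA, fewer cells with a transcript and less of it per cell cannot be told apart.

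A gene was called where limma, fitted to all 16 libraries and 22331 tested genes with Benjamini-Hochberg adjustment, gave an adjusted p under 0.05. In Combo against DMSO, MLLT10, AFF1, AFF4 and CDK9 fell and ELL2 rose, so that 4 of the 10 genes were called lower and 1 higher. Of all tested genes 16% were called in this comparison, 8.8% lower and 7.22% higher. Among the 11167 genes with a mean of at least 100 normalised counts, where 9 of the 10 genes lie, these shares were 15.5% lower and 9.04% higher. In iDOT1L against DMSO 1 of the 10, MLLT10, was called lower and 0 higher, where 6.25% of all tested genes were called (12.2% with the replicate number as a block). Of all tested genes 3.17% were lower and 3.08% higher in that comparison, or 5.18% and 4.31% among the 11167. In iEZH2 against DMSO limma called 0 of 10, with 2 at an unadjusted p under 0.05, where 3.35% of all tested genes were called, 2.05% lower and 1.3% higher (9.76% with the block). The median log2 fold change of the 10 genes was -0.11 in iDOT1L, -0.14 in iEZH2 and -0.24 in Combo, beside medians over all tested genes of 0.01, 0.02 and 0.03. These comparisons share the DMSO libraries.

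**Figure D1:**
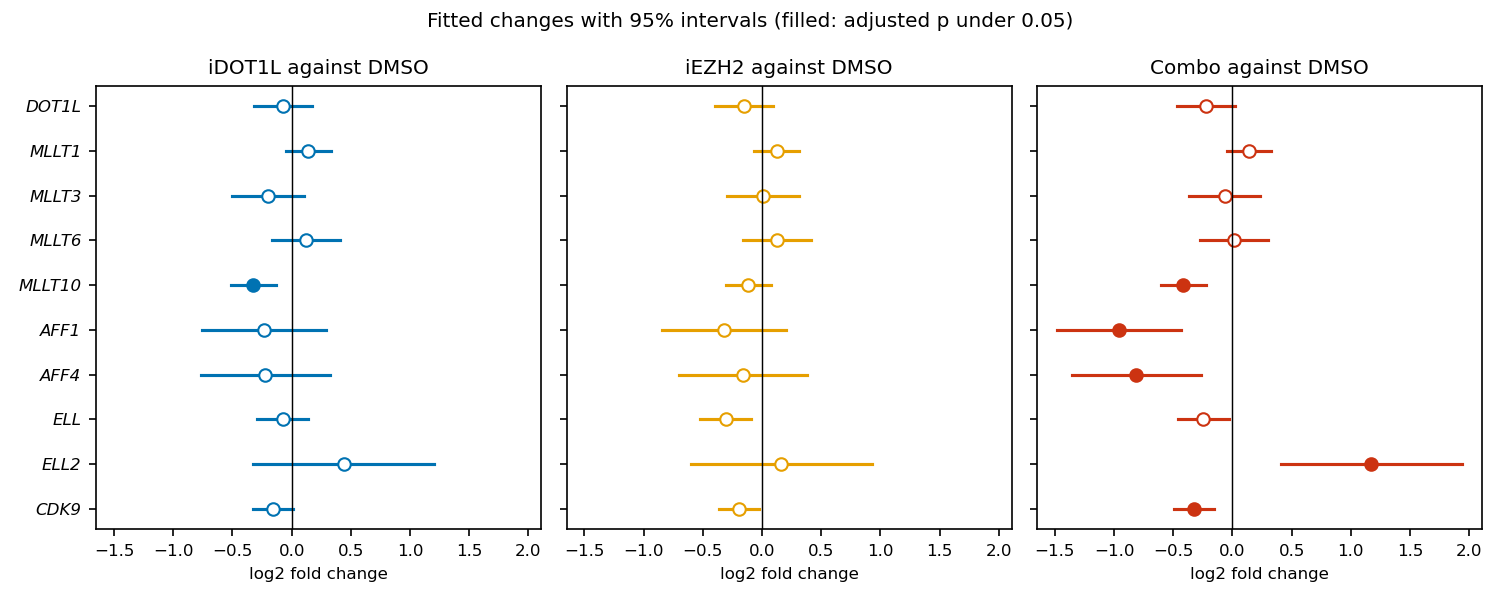
Log2 fold change of each of the 10 genes in iDOT1L, iEZH2 and Combo against DMSO, with 95% intervals from limma; filled points have an adjusted p under 0.05. Combo has 5 filled points, of which ELL2 alone lies above 0, iDOT1L has 1 (MLLT10), and iEZH2 has 0.

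The promoters of the called genes are shown because their transcripts moved in the same treated cells. Each line is the 150 bases upstream of a RefSeq transcription start on GRCh38.p14, 5′ to 3′ on the gene's strand, with matches to 6 motifs, searched on both strands, in capitals. Of the 10 genes 8 had an entry, with 10 windows in all, and DOT1L and ELL2 are named only.
AFF1, chr4:86934861-86935010, plus strand: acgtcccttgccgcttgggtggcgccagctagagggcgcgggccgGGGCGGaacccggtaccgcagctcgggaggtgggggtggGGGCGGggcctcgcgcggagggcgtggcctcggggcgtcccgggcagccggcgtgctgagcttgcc
AFF1, chr4:87007121-87007270, plus strand: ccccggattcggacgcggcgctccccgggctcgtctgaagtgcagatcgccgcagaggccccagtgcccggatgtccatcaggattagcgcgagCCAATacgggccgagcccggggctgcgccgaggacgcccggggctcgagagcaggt
AFF4, chr5:132963635-132963784, minus strand: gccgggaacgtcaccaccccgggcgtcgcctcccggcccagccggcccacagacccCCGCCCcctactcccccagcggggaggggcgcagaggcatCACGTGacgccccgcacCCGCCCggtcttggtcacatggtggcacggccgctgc
MLLT10, chr10:21534082-21534231, plus strand: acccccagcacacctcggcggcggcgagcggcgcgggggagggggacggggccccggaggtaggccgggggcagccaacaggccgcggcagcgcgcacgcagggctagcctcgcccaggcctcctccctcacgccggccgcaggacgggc
MLLT10, chr10:21533606-21533755, plus strand: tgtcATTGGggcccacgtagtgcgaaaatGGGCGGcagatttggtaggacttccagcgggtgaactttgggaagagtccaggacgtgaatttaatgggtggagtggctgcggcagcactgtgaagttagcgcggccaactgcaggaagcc
CDK9, chr9:127785884-127786033, plus strand: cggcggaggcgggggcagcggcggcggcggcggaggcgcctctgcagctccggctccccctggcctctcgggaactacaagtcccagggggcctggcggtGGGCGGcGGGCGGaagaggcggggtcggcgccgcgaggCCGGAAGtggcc

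Both MLLT10 windows, the second AFF1 window and the CDK9 window lie inside the GENCODE v29 bounds of their genes. CG dinucleotides numbered 20 and 20 in AFF1, 17 in AFF4, 20 and 8 in MLLT10 and 21 in CDK9, against a median of 7 over the 35116 windows in the RefSeq table. GGGCGG, a motif of SP and KLF factors, was found in 7 of the 10 windows and in 36.8% of all windows. CCAAT was found in 4 of 10 and in 23.5% of all. CCGGAAG, a motif of ETS factors, was found only in the CDK9 window among the 10 (6.85% of all windows), and CACGTG, an E-box, only in that of AFF4 (4.57% of all). TATAAA was in 0 of 10 windows and in 6.71% of all. TGACGTCA, a cAMP response element, was in 0 of 10 windows and in 1.4% of all. A match is a description of these letters and not a measured binding site.

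DOT1L itself, the target of EPZ5676, lies at chr19:2164149-2232578 on the plus strand of GRCh38. It had 5783, 7721, 6461 and 6035 normalised counts in the iDOT1L libraries and 5928, 6458, 5992 and 6087 in the iEZH2 libraries. The Combo libraries had 4235, 6650, 6412 and 6328, against 6731, 6946, 6744 and 6761 in the DMSO libraries. The DMSO libraries lay close together, 1 Combo library stood well below the others, and the iDOT1L libraries spread to both sides of DMSO. All 4 iEZH2 and all 4 Combo libraries were below every DMSO library. How many of all tested genes show such a separation was not counted, for this gene or those below. The fitted log2 fold change was -0.07 (95% interval -0.32 to 0.17, adjusted p = 0.814) in iDOT1L, -0.15 (-0.40 to 0.09, adjusted p = 0.586) in iEZH2 and -0.22 (-0.47 to 0.02, adjusted p = 0.218) in Combo. Without the low Combo library, numbered 1, the Combo value was -0.07. DOT1L mRNA was therefore not called in any treatment, and the intervals allow changes down to these lower bounds. DOT1L shares 11.2% of its 31-base words with other genes, 5.18% with AC004490.1, an antisense gene that overlaps it. Since strand use in the counting is not stated, reads of AC004490.1 from the shared part cannot be told apart from those of DOT1L.

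MLLT10, known as AF10, binds DOT1L and promotes the higher states of its methylation mark. It lies at chr10:21524675-21743630 on the plus strand, and 1.44% of its 31-base words occur in other genes. It had 1509, 1347, 1381 and 1376 normalised counts in the iDOT1L libraries, and 1268, 1495, 1162 and 1364 in the Combo libraries. The iEZH2 libraries had 1819, 1648, 1543 and 1478, against 1904, 1792, 1642 and 1692 in the DMSO libraries. Every iDOT1L and every Combo library was below every DMSO library, whereas the iEZH2 libraries overlapped DMSO. Means were 1403 ± 71.99 in iDOT1L, 1322 ± 141 in Combo and 1758 ± 116 in DMSO (SD, n = 4 each). MLLT10 fell by 0.32 on the log2 scale in iDOT1L (SE 0.09, adjusted p = 0.0382), and by 0.41 in Combo (SE 0.09, adjusted p = 0.0035). In iEZH2 its log2 fold change was -0.12 (adjusted p = 0.588). The iDOT1L call was lost in 6 of the 16 fits that left out 1 library (without iDOT1L 2, 3 or 4, or DMSO 1, 2 or 4), with an adjusted p of up to 0.117, and the Combo call was kept in all 16. The log2 difference of Combo minus iDOT1L was -0.09 (adjusted p = 0.681), and the interaction was 0.03 (SE 0.13), so the MLLT10 values of the Combo and iDOT1L groups were not separated by a test.

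MLLT6, known as AF17, is the paralog of MLLT10. It lies at chr17:38705542-38729803 on the plus strand. Its libraries had 1994, 2409, 2283 and 2066 normalised counts in iDOT1L, 2231, 2399, 1965 and 2214 in iEZH2 and 1373, 2598, 2200 and 2170 in Combo, against 2109, 2018, 1979 and 1933 in DMSO. The lowest Combo library was the one in which DOT1L was also lowest. The groups overlapped, and the log2 fold changes of 0.12, 0.13 and 0.02 were not called. MLLT6 shares 8.92% of its 31-base words with other genes, 2.90% with the antisense gene AC006449.3.

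MLLT1, known as ENL, and MLLT3, known as AF9, read acylated lysines through their YEATS domains. They lie on minus strands, at chr19:6210379-6279948 and chr9:20341665-20622543. MLLT1 had 3514, 4080, 3891 and 3839 normalised counts in iDOT1L, 3296, 4328, 3920 and 3658 in iEZH2 and 3349, 3992, 4134 and 3854 in Combo, against 3238, 3664, 3601 and 3391 in DMSO. In iDOT1L and in Combo 3 libraries were above every DMSO library and 1 lay among the DMSO values, and in iEZH2 2 were above and 2 lay among them. Log2 fold changes were 0.14, 0.12 and 0.14, with adjusted p of 0.452, 0.557 and 0.339. MLLT3 had 479, 327, 389 and 457 normalised counts in iDOT1L, 551, 443, 476 and 426 in iEZH2 and 533, 391, 406 and 477 in Combo, against 539, 373, 522 and 461 in DMSO. The MLLT3 groups overlapped in all comparisons and none was called (log2 fold changes -0.20, 0.01 and -0.07). In Molm14 the reads of the KMT2A-MLLT3 fusion that fall in MLLT3 exons cannot be told apart from those of the unfused gene.

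AFF1 is a scaffold of the super elongation complex and is itself a KMT2A fusion partner in acute lymphoblastic leukaemia. It lies at chr4:86935002-87141054 on the plus strand, with a coding transcript of 9390 bases. It had 14011, 8533, 7667 and 7100 normalised counts in the iDOT1L libraries and 13375, 8542, 6504 and 6812 in the iEZH2 libraries. The Combo libraries had 5361, 6827, 4799 and 4962, against 14622, 10993, 9094 and 8466 in the DMSO libraries. Every Combo library was below every DMSO library. In iDOT1L and iEZH2 the library numbered 1 stood high and the others lay below the 3 highest DMSO libraries. Means were 5487 ± 924 in Combo and 10794 ± 2769 in DMSO (SD, n = 4 each). AFF1 fell to 0.515 of its DMSO level in Combo (log2 fold change -0.96, 95% interval -1.48 to -0.43, adjusted p = 0.0144). Its log2 fold changes in iDOT1L and iEZH2 were -0.23 (adjusted p = 0.696) and -0.32 (adjusted p = 0.588). The Combo call was lost only without DMSO library 1, at an adjusted p of 0.0501. With the 12 libraries numbered 2 to 4, a choice made after seeing the data, AFF1 had a log2 fold change of -0.79 in Combo (adjusted p = 0.00228), where 13.6% of all tested genes were called and 7.59% lower.

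AFF4, the other AFF scaffold among the 10 genes, lies at chr5:132875379-132963634 on the minus strand, with a coding transcript of 9552 bases. It had 1752, 1160, 1062 and 882 normalised counts in iDOT1L and 2037, 1331, 966 and 861 in iEZH2, with library 1 the highest of each. The Combo libraries had 759, 1013, 719 and 667, against 1840, 1452, 1189 and 1107 in DMSO. The Combo libraries again did not overlap DMSO. Means were 790 ± 153 in Combo and 1397 ± 330 in DMSO (SD, n = 4 each). AFF4 fell to 0.569 of its DMSO level in Combo (log2 fold change -0.81, SE 0.26, adjusted p = 0.0406), a call that was lost in 9 of the 16 fits without 1 library, with an adjusted p of up to 0.123. Those libraries were iDOT1L 2 and 3, iEZH2 2, Combo 1, 3 and 4 and DMSO 1, 2 and 3. In the 12 libraries numbered 2 to 4 the log2 fold change was -0.66 (adjusted p = 0.0284). Log2 fold changes in iDOT1L and iEZH2 were -0.22 and -0.16 and were not called.

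**Figure D2:**
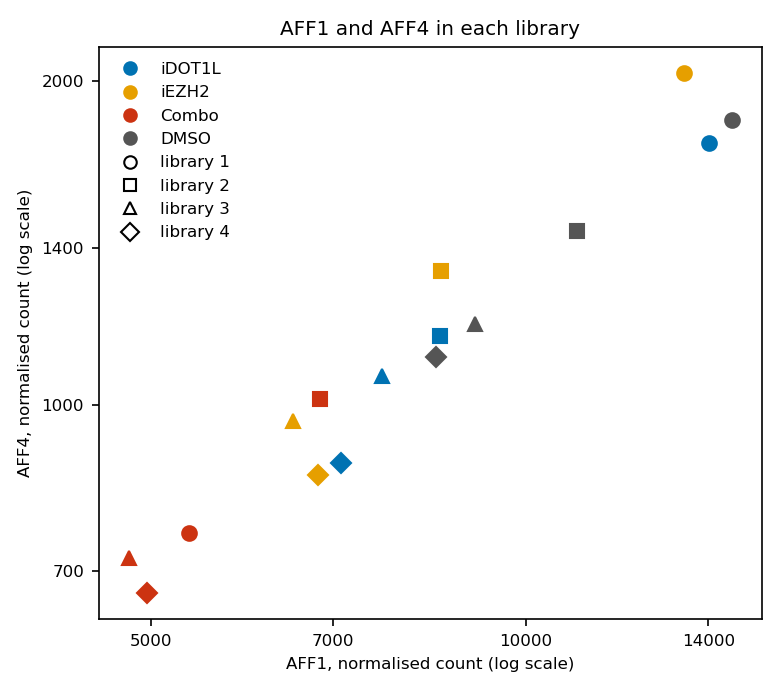
Normalised counts of AFF4 (y) against AFF1 (x), both on log axes, in the 16 libraries; colour gives the group and shape the library number. The Combo points numbered 1, 3 and 4 lie at the low end, and Combo 2 lies just above iEZH2 3 and 4 on both axes. The libraries numbered 1 of iDOT1L, iEZH2 and DMSO lie at the high end.

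AFF1 and AFF4 varied together. Over the 16 libraries the Pearson correlation of their log2 normalised counts was 0.976, and it was 0.976 for deviations from group means, with libraries of a group, and their number, as shared sources. In Combo against DMSO, more of the long transcripts were called lower: the 1361 genes of at least 8 kb had a median log2 fold change of -0.10 and 15.7% called lower and 7.42% higher, and 15234 shorter genes had a median of 0.02, with 10.4% called lower and 8.67% higher. AFF1 and AFF4 are the 2 genes of the 10 in the longer class, and both lie well below the median of that class. The part of transcript length in their change was not tested.

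Combo did not differ from either single treatment by a call in any of the 10 genes in the fit without the block. By limma, 0 of 10 were called in Combo against iDOT1L (3 at an unadjusted p under 0.05), where 2.58% of all tested genes were called, and 0 of 10 in Combo against iEZH2 (4 at an unadjusted p under 0.05), where 3.81% were called. AFF1 was -0.73 on the log2 scale in Combo against iDOT1L (adjusted p = 0.143) and -0.63 in Combo against iEZH2 (adjusted p = 0.206), and AFF4 was -0.59 (adjusted p = 0.257) and -0.65 (adjusted p = 0.213). The samples of Combo and iDOT1L were taken as paired by replicate number, from correlations among abundant genes and not from the labels. With the number as a block, limma called AFF1 (adjusted p = 0.00415) and AFF4 (adjusted p = 0.0124) lower in Combo than in iDOT1L. With that block 10% of all tested genes were called, 6.26% lower and 3.78% higher. The AFF1 and AFF4 calls between these groups rest on that pairing. The interaction asks whether Combo departs from the sum of the single changes on the log2 scale. By limma it was called for 0 of 10, with 0 at an unadjusted p under 0.05, and for 0 of all tested genes (848 at an unadjusted p under 0.05). With the block limma also called it for 0 of 10 and for 0 of all tested genes (1466 at an unadjusted p under 0.05). In the fit without the block the interaction was -0.40 (SE 0.35) for AFF1 and -0.43 (SE 0.36) for AFF4. At the spread of that fit a departure of that size could not be separated from none.

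CDK9, the kinase of P-TEFb, lies at chr9:127785679-127790787 on the plus strand. It had 1031, 1160, 988 and 1085 normalised counts in iDOT1L and 1014, 1130, 1002 and 1003 in iEZH2. The Combo libraries had 960, 933, 879 and 1010, against 1281, 1156, 1146 and 1163 in DMSO. The Combo libraries were all below the DMSO libraries, and the iEZH2 libraries were too, by smaller gaps. Means were 945 ± 54.7 in Combo and 1187 ± 63.1 in DMSO (SD, n = 4 each). CDK9 fell to 0.797 of its DMSO level in Combo (log2 fold change -0.33, SE 0.08, adjusted p = 0.00842), and the call held in all 16 fits without 1 library, with adjusted p of 0.0075 to 0.0384. The log2 fold change was -0.16 (adjusted p = 0.337) in iDOT1L and -0.19 (adjusted p = 0.235) in iEZH2.

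ELL2 had the lowest counts of the 10 genes, at chr5:95885098-95962071 on the minus strand. It had 84.5, 58.4, 73.4 and 32.5 normalised counts in iDOT1L and 57.4, 23.1, 35.3 and 114 in iEZH2. The Combo libraries had 108, 109, 83.8 and 94.1, against 52.3, 34.3, 39.4 and 48.3 in DMSO. Every Combo library was above every DMSO library, and the iDOT1L and iEZH2 groups ran across the DMSO values. Means were 98.7 ± 11.99 in Combo and 43.6 ± 8.17 in DMSO (SD, n = 4 each). ELL2 rose 2.25-fold in Combo (log2 fold change 1.17, SE 0.36, adjusted p = 0.0341). On the deposited variance-stabilised log2 values its difference, Combo minus DMSO, was 0.49 (SE 0.14, adjusted p = 0.0234). The call was lost in 7 of the 16 fits without 1 library (each Combo library and DMSO 2, 3 and 4), with an adjusted p of up to 0.0861. A pseudogene, ELL2P1, shares 9.54% of the 31-base words of ELL2, and reads from either could be counted for the other.

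ELL raises the rate of elongation by RNA polymerase II like ELL2 and lies at chr19:18442663-18522127 on the minus strand. It had 1251, 974, 986 and 1033 normalised counts in iDOT1L and 893, 930, 833 and 936 in iEZH2. The Combo libraries had 870, 1048, 967 and 875, against 1245, 962, 1194 and 1067 in DMSO. All 4 iEZH2 libraries were below DMSO, while Combo and iDOT1L overlapped it. The log2 fold change was -0.31 in iEZH2 (adjusted p = 0.117), -0.25 in Combo (adjusted p = 0.117) and -0.07 in iDOT1L, none of them called. The antisense gene AC010335.1 overlaps ELL and shares 9.06% of its 31-base words, and its reads from that shared part cannot be told apart from those of ELL.

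**Figure D3:**
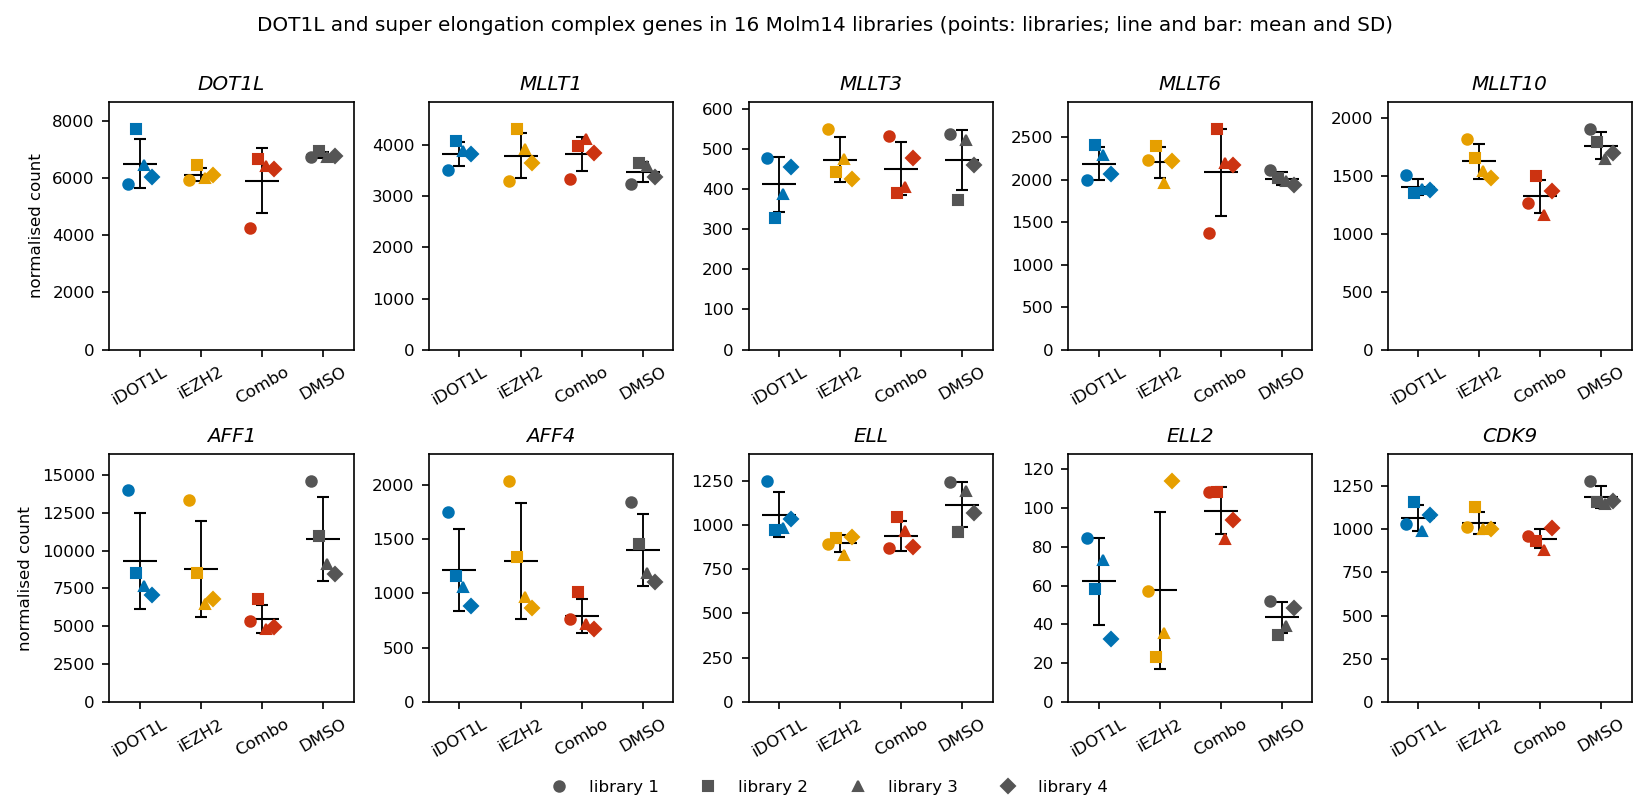
Normalised counts of the 10 genes in the libraries of iDOT1L, iEZH2, Combo and DMSO, with the mean and SD of each group as lines and shape for the library number; each panel has its own scale from 0. Among the genes called in Combo, its points lie apart from DMSO for AFF1, AFF4, MLLT10 and CDK9 (lower) and ELL2 (higher).

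Per kilobase of the longest coding transcript, levels in Combo were ordered MLLT1 (850 normalised counts per kb), DOT1L (794), AFF1 (584), CDK9 (384), MLLT6 (275), MLLT10 (258), ELL (233), AFF4 (82.7), MLLT3 (66.7) and ELL2 (16.3). The ranges of the first 3 overlapped each with the next, those of MLLT6, MLLT10 and ELL did too, and so did those of AFF4 and MLLT3. In DMSO the levels per kb were AFF1 (1150), DOT1L (914), MLLT1 (771), CDK9 (482), MLLT10 (343), ELL (277), MLLT6 (265), AFF4 (146), MLLT3 (70.0) and ELL2 (7.20). There only AFF1 with DOT1L and ELL with MLLT6 overlapped among neighbours. AFF1 was also highest by mean in iDOT1L (993) and iEZH2 (938), in both of which its range overlapped that of the next gene. MLLT3 and ELL2 held the last places in each group. Which transcripts of a gene the cells used was not examined, so the order between genes depends on the transcript length chosen.

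**Figure D4:**
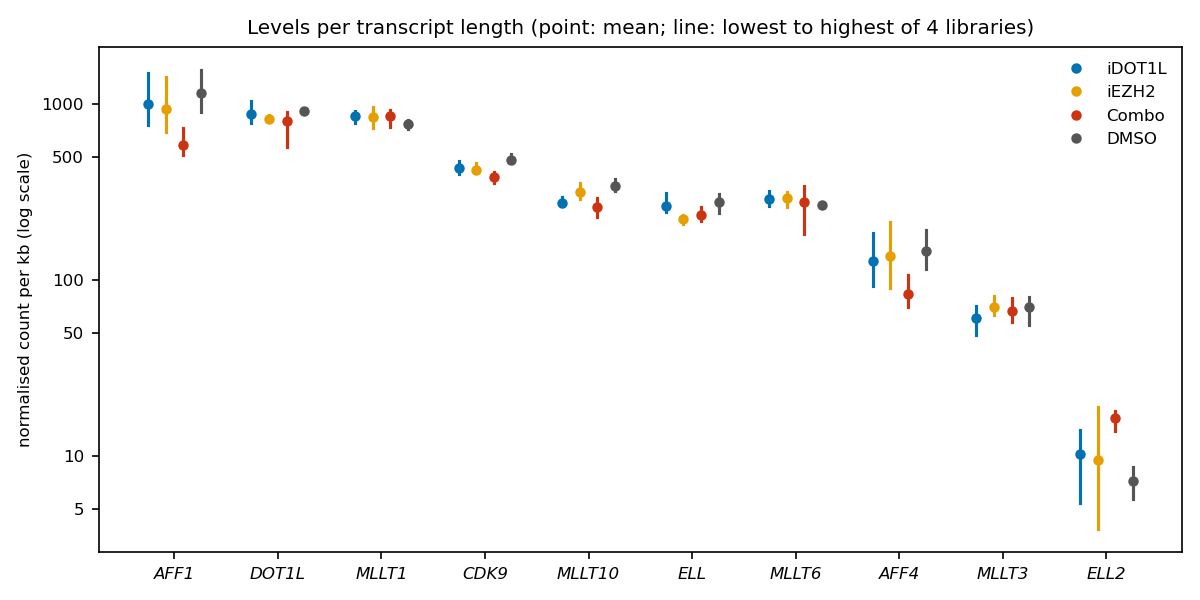
Normalised counts per kilobase of the 10 genes, on a log axis, as the mean of each group with a line over the range of its 4 libraries. AFF1 lies at 584 per kb in Combo, below MLLT1 and DOT1L, and at 1150 per kb in DMSO, above both; ELL2 is the lowest in all 4 groups.

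The genes whose pattern over the 16 libraries was most like a member's were found by Pearson correlation among other genes with a mean of at least 100 normalised counts (11166, or 11167 for ELL2). AFF1 was most like ROCK2 (0.978), AFF4 (0.976) and ZNF609 (0.974). AFF4 was most like AFF1, NR3C1 (0.972) and ATP11B (0.964). MLLT10 was most like PHIP (0.939), IGF2BP2 (0.937) and DMWD (0.933), and CDK9 most like IRGQ (0.906), RNF111 (0.889) and PPP2R2A (0.880). ELL2 was most like SSBP3 (0.856), ADAM28 (0.842) and CDC42EP4 (0.837), and DOT1L most like XPO6 (0.900), MAN2A2 (0.884) and ZC3H18 (0.8835). MLLT10 was also close to AFF1 (0.793) and AFF4 (0.797) over the libraries, DOT1L to MLLT6 (0.757), and MLLT1 and MLLT3 ran opposite (-0.665). These are descriptions over libraries that share group and depth.

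Other genes of the elongation pathway were read from 6 lists of 51 genes: other P-TEFb and super elongation complex genes, regulators of P-TEFb with other elongation kinases, the little elongation complex, DSIF with NELF, the PAF complex and other elongation factors, the H2B ubiquitin pathway, and other proteins named with DOT1L. In Combo against DMSO 7 of the 51 were lower (13.7%) and 4 higher (7.84%), where 8.8% of all tested genes were lower and 7.22% higher. Among genes with a mean of at least 100 normalised counts these shares were 15.5% and 9.04%. The median log2 fold change of the 51 was -0.13, beside 0.03 over all tested genes. In iDOT1L against DMSO 2 were lower and 1 higher, where 3.17% of all tested genes were lower and 3.08% higher. With the block 4 were lower and 2 higher, where 6.53% of all tested genes were lower and 5.69% higher. In iEZH2 against DMSO limma called 0 of 51, with 8 at an unadjusted p under 0.05, where 2.05% of all tested genes were lower and 1.3% higher. There the block called 4 lower and 2 higher, where 5.89% of all tested genes were lower and 3.87% higher.

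**Figure D5:**
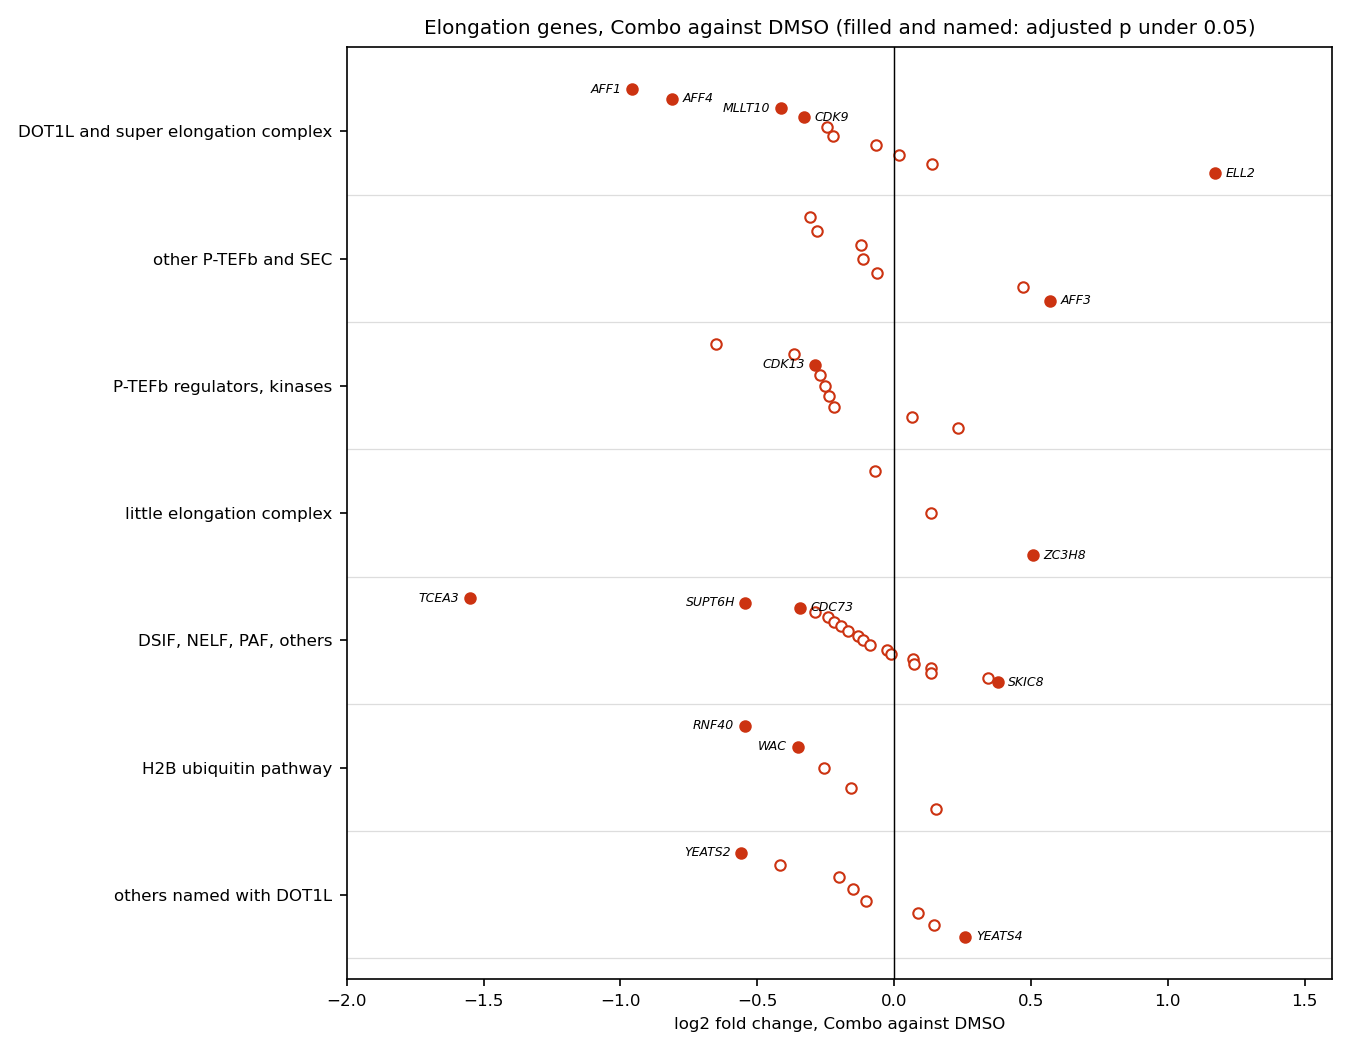
Log2 fold change in Combo against DMSO of the 10 genes and of 51 others in 6 elongation lists, one row of points per list; filled, named points have an adjusted p under 0.05. In the lists 4 genes, AFF3, ZC3H8, SKIC8 and YEATS4, lie right of 0 and 7 lie left, TCEA3 farthest.

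AFF3, a further AFF scaffold, moved the other way from AFF1 and AFF4. It had 3415, 3298, 2784 and 2424 normalised counts in iDOT1L and 1625, 2537, 1881 and 1917 in Combo, against 1695, 1467, 1263 and 972 in DMSO. The iDOT1L libraries lay above all DMSO libraries, and 1 Combo library fell within the DMSO range. AFF3 rose by a log2 fold change of 1.16 in iDOT1L (SE 0.17, adjusted p = 0.000281) and of 0.57 in Combo (adjusted p = 0.0277), the second lost in 5 of 16 fits without 1 library (Combo 2, 3 and 4, and DMSO 3 and 4), with an adjusted p of up to 0.0994. In iEZH2 its log2 fold change was -0.11.

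TCEA3, a member of the TFIIS family, had 22.8, 13.7, 11.3 and 16.9 normalised counts in Combo, against 47.9, 39.6, 54.3 and 50.7 in DMSO. It fell by 1.55 on the log2 scale in Combo (adjusted p = 0.00115) and had a log2 fold change of -1.505 in iDOT1L (adjusted p = 0.00362). SUPT6H, which encodes the histone chaperone SPT6, fell by 0.54 in Combo (adjusted p = 0.000616) and RNF40, an E3 ligase for H2B, fell by 0.55 (adjusted p = 0.000402). WAC, a regulator of that ligase, fell by 0.35 (adjusted p = 0.00294), and YEATS2, a subunit of the ATAC complex, by 0.56 (adjusted p = 0.00596). The calls of TCEA3, SUPT6H, RNF40, WAC and YEATS2 in Combo against DMSO held in all 16 fits without 1 library.

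CDK13, a kinase of the RNA polymerase II tail, fell by 0.29 in Combo (adjusted p = 0.0133, or 0.0552 without Combo 4). In iDOT1L its log2 fold change was -0.30 (adjusted p = 0.0218), a call lost without iDOT1L 4, DMSO 1 or DMSO 3, with an adjusted p of up to 0.0715. CDC73 of the PAF complex fell by 0.34 in Combo (adjusted p = 0.043), a call lost in 8 of the 16 fits (without iDOT1L 3 or 4, iEZH2 3, Combo 3 or 4, or DMSO 1, 2 or 4), with an adjusted p of up to 0.144. Of the genes that rose in Combo, ZC3H8 of the little elongation complex had a log2 fold change of 0.51 (adjusted p = 0.0147, or 0.0566 without DMSO 4). SKIC8, a subunit of the PAF complex, had 0.38 (adjusted p = 0.0223), and lost its call without Combo 3, DMSO 1 or DMSO 3. YEATS4, a YEATS domain reader like MLLT1, had 0.26 (adjusted p = 0.045), and lost its call in 10 of the 16 fits (without library 3 or 4 of any group, Combo 1 or DMSO 1).

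Between treatments, SUPT6H was lower in Combo than in iDOT1L (log2 fold change -0.40, adjusted p = 0.0311) and than in iEZH2 (-0.36, adjusted p = 0.04). RNF40 was lower in Combo than in iDOT1L (-0.37, adjusted p = 0.0388), and AFF3 was higher in Combo than in iEZH2 (0.68, adjusted p = 0.0279). AFF3 was -0.59 in Combo against iDOT1L, with an adjusted p of 0.0752, or 0.0241 with the replicate block. Leaving out 1 library ended the SUPT6H call against iDOT1L in 6 fits (iDOT1L 1, 3 or 4, Combo 1, 3 or 4) and against iEZH2 in 10 (iDOT1L 3 or 4, iEZH2 1, 2 or 3, Combo 1, 3 or 4, DMSO 3 or 4). It ended the RNF40 call in 8 fits (iDOT1L 1, 2 or 3, Combo 1, 3 or 4, DMSO 3 or 4) and the AFF3 call in 6 (iEZH2 1, 2 or 3, Combo 2, 3 or 4). In these comparisons 2 of the 51 were lower and 0 higher against iDOT1L, where 2.58% of all tested genes were called (8 and 1 with the block, where 6.26% were lower and 3.78% higher). Against iEZH2 1 was lower and 1 higher, where 3.81% of all tested genes were called.

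Markers of monocyte maturation, 10 in number, summed to 4634 to 6096 normalised counts in iDOT1L, 2421 to 4283 in iEZH2 and 4620 to 5104 in Combo, against 3654 to 5054 in DMSO. In Combo against DMSO 3 of them were called higher and 2 lower. Their part in the change of the elongation genes was not tested.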

How the data were processed

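RNA was sequenced from 16 libraries of Molm14 cells. Per the submitters' processing notes, kallisto, DESeq2 and hg38 were used, and no version or annotation was given in the sources used here. The deposited values are log2 values that the authors had scaled and variance-stabilised. The inverse of that transformation gave normalised counts. Read totals estimated from the steps of low values were 20.6 to 27.2 M per library, with 67.9% to 71.4% of low values within 0.1 read of a whole number, too few to use a count test, so the design's limma branch was taken. Of the 22445 IDs, 20784 matched GENCODE v29 (GRCh38), which gave positions. Symbols were current ones from a list of gene names, and those of GENCODE v29 where that list had none.

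The 22331 genes above 1 normalised count in 4 or more libraries were fitted with limma 3.58.1 in R 4.3.3, on log2 values with a pseudocount of 1, with 1 mean per group and robust trended moderation. Fold changes are on that scale, which understates changes of low genes. Levels are means ± SD. An adjusted p under 0.05 was a call. Alternatives were a pseudocount of 5, the log2 values as deposited, no filter or a filter at 10, TMM rescaling, a replicate block, only the groups compared, and each library left out. The step was checked on simulated data.

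The members and lists were chosen with earlier results of these data known. The genes named were all 10 members, the called genes of the pathway lists, and up to 3 genes most alike per member.

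The labels do not say what the replicate number stands for. Over 11167 genes with a mean of at least 100, every same-numbered pair deviated together above 0.1 for iDOT1L with DMSO (0.187 to 0.583), iEZH2 with DMSO (0.150 to 0.644) and Combo with iDOT1L (0.133 to 0.463), and these were taken as paired. For Combo with DMSO (0.0378 to 0.474) and Combo with iEZH2 (0.0806 to 0.518) that check was not met. A number that pairs the comparisons above would pair these as well, so the unmet check does not show them to be unpaired. Over the same genes, the best match in the other group had the sample's own number for 6 of 8 samples of iDOT1L with DMSO. It did for 5 of 8 in iEZH2 with DMSO, Combo with iDOT1L and Combo with DMSO, and for 6 of 8 in Combo with iEZH2. That count did not set the comparisons taken as paired apart from the others. Over all 22331 genes no comparison had every pair above 0.1, so the pairing rests on abundant genes. Sharing of 31-base words between genes was counted on GENCODE v29 transcripts. No library held the values of another.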

Additional observations from a re-analysis of the deposited data

Results flagged for a closer look

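In the 40 combinations of the 10 genes and 4 groups of 4 libraries, 4 had a library far from the other 3, where chance gives about 1 in 20. DOT1L had 4235 normalised counts in the Combo library numbered 1, the lowest of its group. It had 6946 in the DMSO library numbered 2, in a tight group that ran from 6731 to 6946. CDK9 had 1130 normalised counts in the iEZH2 library numbered 2 and 1281 in the DMSO library numbered 1, each the highest of its group.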

How the results depend on the processing

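Under the settings that keep all libraries, the members called against DMSO were the same in number. With the replicate block all-gene counts were 2729 for iDOT1L, 2180 for iEZH2 and 5499 for Combo against DMSO, 2240 for Combo against iDOT1L and 2136 for Combo against iEZH2 (1396, 748, 3579, 577 and 850 without). Members lower were then 2 in Combo against iDOT1L and 3 in Combo against iEZH2 (AFF1, AFF4 and MLLT10). The pairing check was not met for Combo with iEZH2, which does not show those samples to be unpaired. The block changed no other member's call. Of the 51 pathway genes the block called 17 lower and 4 higher in Combo against DMSO (7 and 4 without), where it called 5499 of all 22331 tested genes in either direction. In Combo against iEZH2 it called 4 lower and 1 higher (1 and 1 without), where it called 2136 of the 22331. The all-gene calls of these comparisons were not split by direction, so the counts of lower pathway genes have no matching share. Fits of only the groups compared called 450 genes for iEZH2 against DMSO and 511 for Combo against iEZH2. In the 12 libraries numbered 2 to 4, chosen after seeing the data, 0 members were lower in iDOT1L (MLLT10 -0.32, adjusted p = 0.0603), 0 were higher in Combo (ELL2 1.22, adjusted p = 0.103), and 278 and 539 genes were called for Combo against iDOT1L and iEZH2. With 1 library left out, counts were 915 to 1509 for iDOT1L, 409 to 1046 for iEZH2 and 2642 to 3741 for Combo against DMSO, 199 to 700 for Combo against iDOT1L, 493 to 1349 for Combo against iEZH2 and 0 to 1 for the interaction. Members called were 0 to 1 lower in iDOT1L, 0 to 1 higher and 2 to 4 lower in Combo, and 0 to 1 higher and 0 to 1 lower in Combo against iEZH2. The cause was not tested.

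Signs turned only for log2 fold changes that were not called. MLLT1 in Combo against iDOT1L was 0.0066 under TMM rescaling and 0.0205 in the 12 libraries, where MLLT6 was 0.0421 against iDOT1L and 0.083 against iEZH2 and DOT1L 0.0653 against iEZH2. With 1 library left out, MLLT3 ranged from -0.101 to 0.0752, AFF4 from -0.405 to 0.0091 and ELL2 from -0.246 to 0.507 in iEZH2 against DMSO, and MLLT3 from -0.176 to 3e-04 and MLLT6 from -0.102 to 0.205 in Combo against DMSO. In Combo against iDOT1L, DOT1L ranged from -0.217 to 5e-04, MLLT1 from -0.0428 to 0.0614 and MLLT6 from -0.221 to 0.0853. In Combo against iEZH2, DOT1L ranged from -0.137 to 0.0801, MLLT1 from -0.0516 to 0.0794 and MLLT6 from -0.231 to 0.0754.

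Precision is limited by 4 libraries a group, by the estimated read totals, by unstated strand use in counting, and by the single cell line, and low genes such as ELL2 carry the widest errors.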
